A study of Mus musculus with 8 samples.

Results

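Gene expression was compared between macrophages of the genotype label DNMT3A-HET (HET) and wild-type macrophages (WT), both without interleukin 6 (IL-6). The comparison used the 4 control libraries of a series of 8, with 2 libraries for each genotype, and all 13721 genes of 55376 that passed a filter on low counts. Per the labels, bone marrow came from 3 male mice of each genotype at 13 weeks of age. It was grown with M-CSF at 50 ng/mL into macrophages, and polyadenylated RNA was collected on day 8. The other 4 libraries, 2 for each genotype, were treated alike except that IL-6 at 10 ng/mL was present for the last 2 days, and they entered the fit of the spread and a side-by-side comparison. The labels give neither the allele behind DNMT3A-HET nor the mouse strain, and libraries are not tied to individual mice or pools. A p-value therefore reflects only how far these particular libraries scatter, part of which may be technical.

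DNMT3A is an enzyme that places methyl groups on unmethylated cytosines of DNA, and mutations of its gene in blood stem cells are a common cause of clonal haematopoiesis. Macrophages of such clones are a recognised source of inflammatory mediators. Marrow cells cultured with M-CSF, the growth factor sensed by the receptor CSF1R, become adherent macrophages that still divide, engulf material and make lipids. The title of the series concerns less DNMT3A in blood cells combined with a high-fat diet, and this comparison addresses how the genotype alone differed in cultured macrophages.

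Levels per library are CPM, read counts relative to library size as scaled by the TMM method, listed for numbers 1 and 2 of WT and then of HET. A difference is a log2 fold change, HET relative to WT, ± its standard error, from the quasi-likelihood test of edgeR fitted to all 8 libraries. A gene was called when its Benjamini-Hochberg adjusted p over the tested genes was under 0.05, and every adjusted p below is from edgeR unless another tool is named. The strand setting of the counting is not given in the sources used here, so genes that share over 10% of their exon bases with other genes are uncertain, and the shared percentage is given where they are named.

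The control libraries held 22401880 to 24881197 counts, so that 3 counts, the limit that a count of 0 allows, corresponded to 0.121 to 0.134 CPM. The sum of 12 macrophage markers, among them Csf1r, Adgre1, Cd68 and Lyz2, lay between 15020 and 15670 CPM in the 4 libraries. The libraries of a genotype differed from each other beyond sampling noise, with a chi-square per gene of 18.4 in WT and 6.39 in HET, and on the log2 scale they differed by a median of 0.18 in WT and 0.10 in HET. One wild-type library, WT control 2, stood apart in how its levels depended on base composition, as described below.

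Dnmt3a (chr12:3806007-3914443 of mm10), the gene of the genotype label, was at 275 and 244 CPM in WT and 166 and 248 CPM in HET. HET control 1 lay below both WT libraries, whereas HET control 2 lay within the WT range, so the groups overlapped. The difference was -0.32 ± 0.25 (adjusted p = 0.506). Counts over the whole gene do not show which allele a read came from, so these values are no check of an altered protein.

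Of the other genes that write, copy or read DNA methylation, 3 of 14 tested list members were called, all higher, where 2.81% of all tested genes were called higher. Uhrf1, which brings the maintenance enzyme to newly copied DNA, was at 136 and 141 CPM in WT and 201 and 186 CPM in HET. Both HET libraries exceeded both WT libraries, by 0.48 ± 0.08 (adjusted p = 0.00485). The maintenance methyltransferase gene Dnmt1 differed by 0.30 ± 0.08 and Mbd3, a subunit gene of a chromatin remodelling complex, by 0.33 ± 0.09. Dnmt3b, the other de novo methyltransferase, was low at 2.91 and 2.43 CPM in WT and 2.36 and 2.38 CPM in HET and differed by -0.17 ± 0.24 (adjusted p = 0.723). The demethylation genes Tet2 (-0.13 ± 0.09) and Tet3 (0.14 ± 0.07) were not called. Leaving out HET control 1 ended all 3 calls (adjusted p from 0.115 to 0.385). Those of Dnmt1 and Mbd3 were also lost without WT control 2 (0.117 and 0.142), without HET control 2 (0.111 and 0.105) and without either HET IL-6 library (0.0795 to 0.0888). With offsets for base composition and length, explained below, they were lost as well (0.0540 and 0.278), with Mbd3 at 0.15.

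In all, 666 genes were called, which is 4.85% of those tested. Higher in HET were 385 genes (2.81%) and lower 281 (2.05%), of which 31 each changed at least 2-fold. Most differences were small, with a median size of 0.44 on the log2 scale among called genes, and the median over all tested genes was -0.00399. In each of the 666 genes the HET libraries lay both above or both below the WT libraries, which was also so for 25.3% of all tested genes upward and 25.2% downward. DESeq2 called 832 genes, of which 608 were among the 666, and 2903 genes had an unadjusted edgeR p under 0.05.

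The number of calls depended on single libraries. Without HET control 1, 33 genes were called (0.232%), 32 of them among the 666, although 1 library then stood for its genotype with the spread taken from the other groups. All 666 kept their sign, which says little, since in each of them both HET libraries lay on the same side of both WT libraries. The median difference was then 0.42 for the higher and -0.43 for the lower genes, against 0.44 and -0.45 with all libraries. Without HET control 2 the count was 176, without WT control 2 it was 447 and without WT control 1 it was 1304. The IL-6 libraries only serve to estimate the spread. Leaving out either HET IL-6 library lowered the number of calls, and leaving out either WT IL-6 library raised it. The parts of a library's own values and of the smaller number of libraries in the lost calls were not tested. Numbers of calls in this contrast therefore say less than the values of single genes in each library.

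The control libraries also differed by the base composition of genes, the share of G and C in a gene's longest transcript. From the lowest to the highest decile of genes by GC content, the median difference of HET over WT rose from -0.19 to 0.18. In the lowest decile (up to 40.95% GC) 0 genes were called higher and 58 lower. In the highest decile (from 57.4% GC) 125 were called higher and 3 lower. Called higher genes had a median GC content of 55.6% and called lower genes of 44.0%, against 49.1% over all tested genes. WT control 2 showed the steepest trend, with a level in the highest decile of -0.38 relative to the lowest on the log2 scale, measured against the mean of the 4 control libraries. The same value was 0.0068 in WT control 1, 0.16 in HET control 1 and 0.18 in HET control 2. Without WT control 2 the medians of called genes were 54.55% GC for higher and 47.9% for lower.

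**Figure D1:**
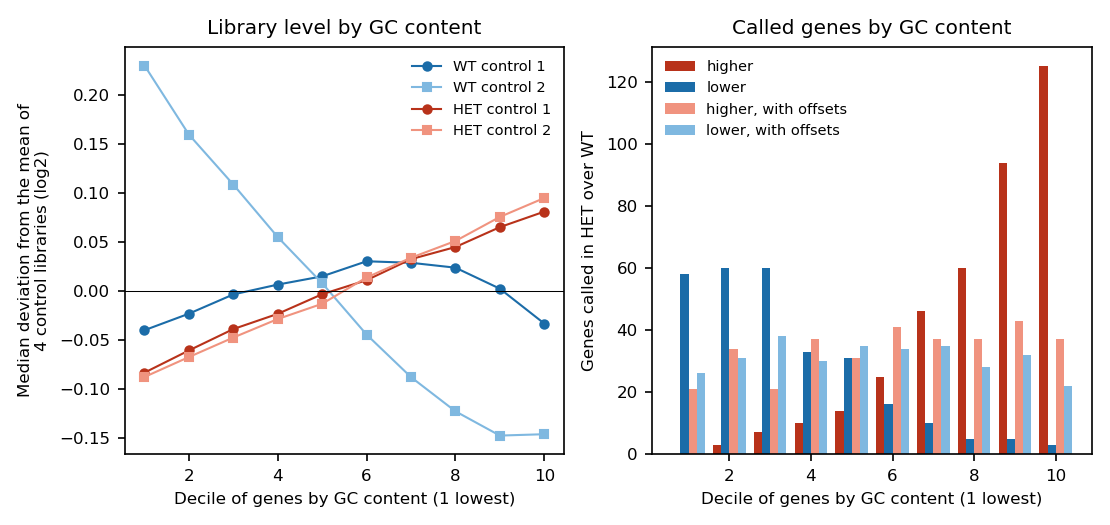
Left, the median deviation of each control library from the mean of the 4 (log2) in deciles of tested genes ordered by GC content; right, the number of genes called higher and lower in HET over WT in each decile, with and without offsets for GC content and gene length. WT control 2 falls from 0.23 to -0.15 while both HET libraries rise from about -0.08 and -0.09 to 0.08 and 0.10, and the slope of the calls (58 lower against 0 higher in decile 1, 3 lower against 125 higher in decile 10) is absent with the offsets.

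A fit with smooth offsets for GC content and length in every library removed the trend and called 653 genes (4.76%), 342 higher (2.49%) and 311 lower (2.27%), with 388 shared with the 666. In it 21 genes were called higher and 26 lower in the lowest GC decile, and 37 and 22 in the highest. Gene length went with the difference less steeply, from 0.03 in the shortest decile to -0.07 in the longest. The part of GC content in the difference of a single gene was not tested, and calls that end with the offsets are named as such below.

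A set of 22 genes, 16 higher and 6 lower, stayed called without each control library in turn, with the offsets and in DESeq2. They were also called without each IL-6 library and in a fit of the 4 control libraries alone. Their adjusted p ran from 0.000472 to 0.00485 with all libraries and reached at most 0.04995 without HET control 1, so several passed narrowly there. Their median GC content was 56.9%.

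**Figure D2:**
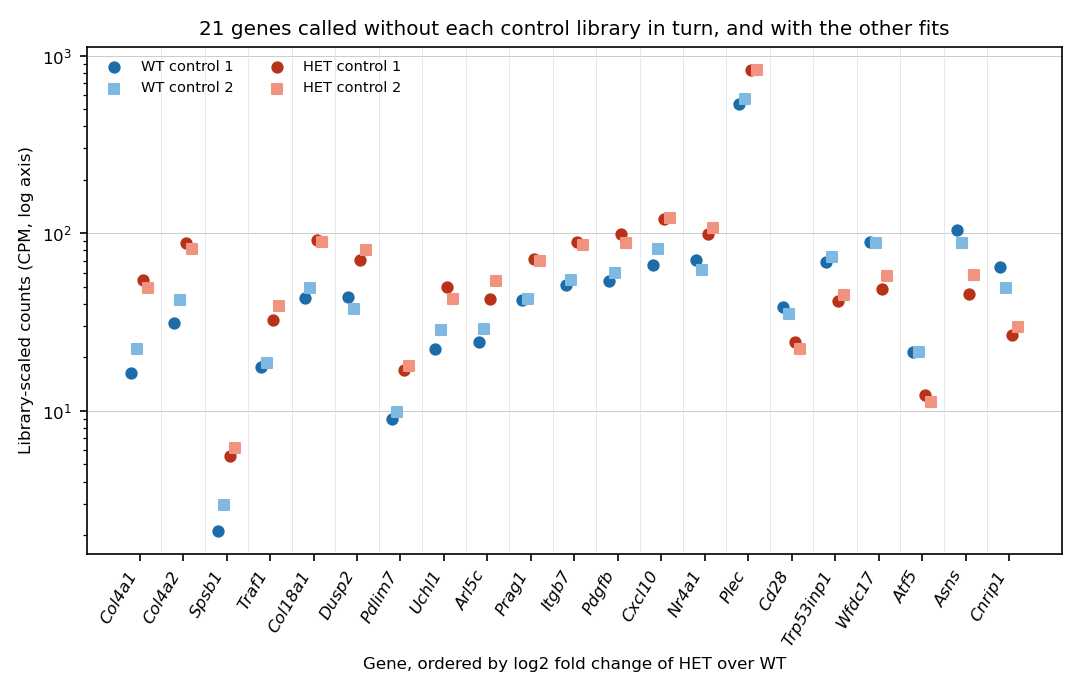
Library-scaled counts (CPM, log axis) in each of the 4 control libraries for 21 of the 22 genes that stayed called without each control library in turn, ordered from the largest rise to the largest fall in HET. In every gene the 2 HET points (red) lie both above or both below the 2 WT points (blue), from Col4a1 at 16.4 and 22.2 against 54.5 and 49.1 CPM to Cnrip1 at 64.5 and 49.1 against 26.9 and 29.7 CPM.

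Several of the 16 higher genes encode parts of the basement membrane or regulate the matrix around cells. Col4a1 (chr8:11198423-11312826), a chain of type IV collagen, was at 16.4 and 22.2 CPM in WT and 54.5 and 49.1 CPM in HET. Its neighbour and partner chain Col4a2 was at 31.03 and 42.3 CPM in WT and 88.2 and 81.958 CPM in HET, and Col18a1, whose product holds the fragment endostatin, was at 43.4 and 49.3 CPM in WT and 91.2 and 89.4 CPM in HET. In all 3 both HET libraries exceeded both WT libraries, by 1.43 ± 0.13 (adjusted p = 0.000472), 1.22 ± 0.13 (0.000472) and 0.96 ± 0.10 (0.000472). The growth factor gene Pdgfb was at 53.5 and 59.4 CPM in WT and 98.8 and 87.6 CPM in HET and was higher by 0.72 ± 0.09.

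Of 26 tested members of the basement membrane and matrix list, 5 were called higher and 0 lower, with 13 above 0 and a median of 0.06. Of all tested genes 2.81% were called higher and 2.05% lower. The other 2 called members were Olfml3 and the nidogen gene Nid2 (0.45 ± 0.10). The proteases and their inhibitors were divided, 3 of 19 tested members higher and 3 lower, with a median of -0.02. Among the higher ones were the urokinase receptor gene Plaur (0.48 ± 0.09) and the membrane protease gene Adam8 (0.45 ± 0.09). Lower were Mmp27 (-0.89 ± 0.13), the aggrecanase-family gene Adamts1 (-1.66 ± 0.32, from 2.23 and 2.12 to 0.787 and 0.586 CPM) and the inhibitor gene Timp2 (-0.51 ± 0.12). Of the 10 called genes named in these 2 lists, 6 lost their call without HET control 1 (adjusted p from 0.0566 to 0.364), namely Nid2, Plaur, Adam8, Adamts1, Mmp27 and Timp2. Olfml3 was lost without WT control 1 (0.0596) or 2 (0.0644), and Timp2 without WT control 1 (0.0962, at -0.31), without WT IL-6 1 (0.0507) and without either HET IL-6 library (0.0594 and 0.0598). Nid2, Adam8 and Adamts1 were lost without HET control 2 (0.0722 to 0.131), and Nid2 with the offsets (0.104).

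Low genes of stromal cells had the opposite direction. Stromal and fibroblast markers were few in all libraries, and their sum over 14 genes was 7.68 and 19.3 CPM in WT and 4.98 and 3.02 CPM in HET. Of the 6 with enough counts to be tested only the proteoglycan gene Bgn was called lower (1.95 and 4.02 CPM in WT and 0.875 and 0.502 CPM in HET), and Lepr and Lum were at 0 in all 4 libraries. Of the 14 called genes that differed by more than 4-fold, 10 were lower, and 5 of these, named after their values were seen, encode matrix or secreted proteins made by fibroblasts. Sulf1 had 4 and 14 counts in WT and 0 in both HET libraries, and Thbs2 had 9 and 13 counts in WT and 0 in HET. Grem1 had 12 and 27 counts against 1 and 2, Cemip 17 and 34 against 0 and 2, and Col12a1 12 and 26 against 1 and 3. WT control 2 was the higher WT library in all 5, and all 5 calls were lost without HET control 1 (adjusted p from 0.106 to 0.341). Sulf1, Thbs2, Grem1 and Col12a1 were also lost without WT control 2 (0.0999 to 0.223) or HET control 2 (0.121 to 0.164). Sulf1 was lost without either HET IL-6 library (0.0637 and 0.0640), and Col12a1 without either WT IL-6 library (0.0523 and 0.0552) and with the offsets (0.0617). These genes and the collagen IV genes therefore went in opposite directions, and the part of any stromal cells in the collagen IV values was not tested.

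The remaining higher genes of the 22 had various roles. Traf1, an adaptor induced by NF-kB, was at 17.6 and 18.5 CPM in WT and 32.6 and 38.95 CPM in HET, and Dusp2, a phosphatase that switches off MAP kinases, was at 43.8 and 37.6 CPM in WT and 70.959 and 80.8 CPM in HET. Each was higher in both HET libraries, by 0.99 ± 0.15 (adjusted p = 0.00366) and 0.90 ± 0.11 (0.00195). The chemokine gene Cxcl10 was at 66.4 and 81.4 CPM in WT and 121 and 122 CPM in HET and was higher by 0.72 ± 0.09 (adjusted p = 0.00208), with 0.76 under the offsets. Spsb1 (1.21 ± 0.19), a substrate adaptor of ubiquitin ligases, and Nr4a1 (0.64 ± 0.10), a nuclear receptor of non-classical monocytes, were also higher. The integrin gene Itgb7 was at 51.3 and 54.3 CPM in WT and 88.8 and 86.1 CPM in HET, and the cytolinker gene Plec at 533 and 569 CPM in WT and 826 and 829 CPM in HET. The difference was 0.73 ± 0.08 for Itgb7 and 0.59 ± 0.08 for Plec. Arl5c (0.86 ± 0.14), Pdlim7 (0.88 ± 0.11), Prag1 (0.74 ± 0.09) and Uchl1 (0.86 ± 0.12) were higher as well, with 18.1% of the exon bases of Uchl1 shared.

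The 6 lower genes included 2 of amino acid stress, Asns and Atf5, described below. Cnrip1, a binding partner of a cannabinoid receptor, was at 64.5 and 49.1 CPM in WT and 26.9 and 29.7 CPM in HET. The T cell costimulator gene Cd28 was at 38.4 and 35.3 CPM in WT and 24.4 and 22.3 CPM in HET, and Trp53inp1, a p53-inducible gene of autophagy, at 68.9 and 73.7 CPM in WT and 41.5 and 45.1 CPM in HET. The groups did not overlap in any of the 3, with differences of -1.01 ± 0.12, -0.66 ± 0.10 and -0.72 ± 0.09. Wfdc17, which encodes a small secreted protein of activated macrophages, was at 89.5 and 87.9 CPM in WT and 48.4 and 57.1 CPM in HET and was lower (-0.75 ± 0.09, adjusted p = 0.00151).

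The 3 largest rises among called genes of at least 5 CPM came with unequal HET libraries. Cd207 (langerin, a lectin of Langerhans cells) was at 0.478 and 1.32 CPM in WT and 7.22 and 3.39 CPM in HET, and Olfml3, a secreted matrix protein gene, at 2.87 and 4.10 CPM in WT and 18.5 and 10.1 CPM in HET. Itgal, the alpha chain of the integrin LFA-1, was at 15.1 and 22.4 CPM in WT and 67.9 and 40.1 CPM in HET. In these 3 genes HET control 1 was 1.69 to 2.13 times as high as HET control 2, and both exceeded both WT libraries. The differences were 2.57 ± 0.51, 2.04 ± 0.29 and 1.53 ± 0.27. Further rises among the 15 largest, outside the set of 22, were those of Smad6 (1.48 ± 0.22), an inhibitor of BMP signalling, the kinase gene Dmpk (1.44 ± 0.20), the pentraxin gene Nptx1 (1.33 ± 0.27), the integrin chain Itga8 (1.15 ± 0.25), the tetraspanin gene Tspan33 (1.12 ± 0.22) and the proteoglycan gene Cspg4 (1.03 ± 0.19). Dnaaf3 (1.51 ± 0.30) and Zmynd15 (1.03 ± 0.21) also belonged to them and share 16.5% and 12.5% of their exon bases with other genes.

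Of these 11 genes, Dmpk alone stayed called without each of the 8 libraries, and its call ended with the offsets (adjusted p = 0.0939, difference 1.27). The offsets ended the calls of 8 of the 11 (adjusted p from 0.0544 to 0.182) and left those of Olfml3, Smad6 and Tspan33. Without WT control 1, all but Smad6, Dmpk and Tspan33 lost their call (0.0596 to 0.174), as they did without WT control 2 (0.0583 to 0.308). Without HET control 1, 8 were lost, other than Olfml3, Itgal and Dmpk (0.0566 to 0.262). The values of Dnaaf3, Cspg4 and Zmynd15 were then 0.89, 0.67 and 0.63. Itga8 was lost without HET control 2 (0.0548). Itgal, Itga8 and Cspg4 were lost without either WT IL-6 library (0.0660 to 0.111), and Cd207, Itgal and Nptx1 without either HET IL-6 library (0.0592 to 0.0620).

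**Figure D3:**
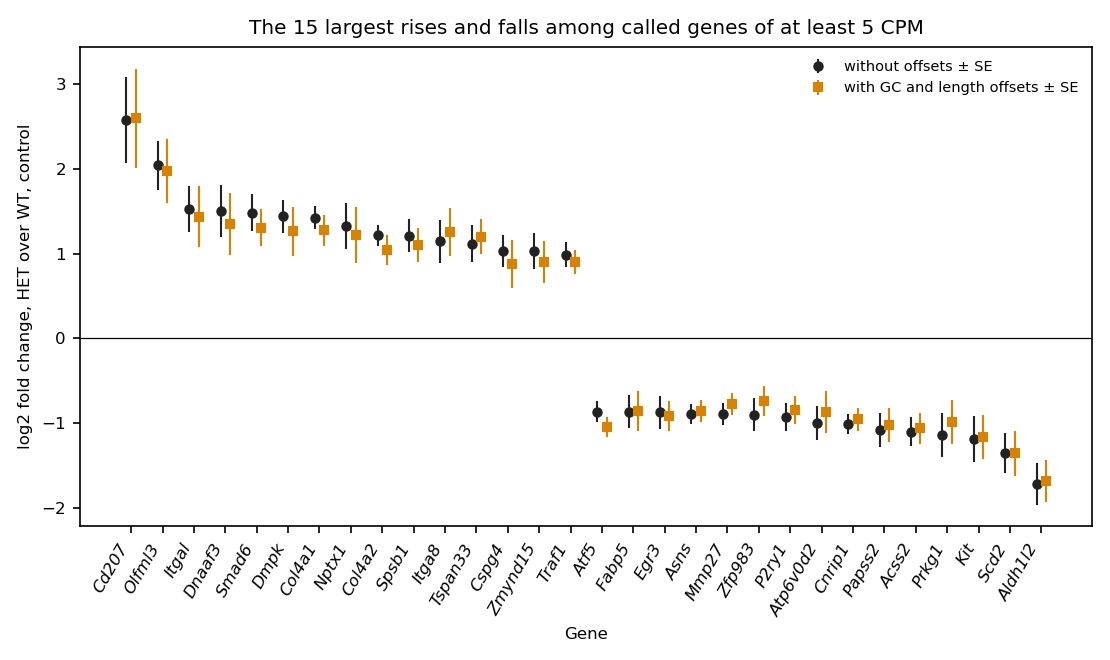
Log2 fold change of HET over WT in control macrophages ± SE for the 15 largest rises and 15 largest falls among called genes with at least 5 CPM in a group, without (black circles) and with (orange squares) offsets for GC content and length. Values run from Cd207 at 2.57 to Aldh1l2 at -1.72, and the offsets move each point by less than the sum of the 2 standard errors while many error bars widen.

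The largest falls among called genes of at least 5 CPM included enzymes of folate, lipid and sulfate metabolism. The same limit holds for the falls ranked in the next paragraph. Aldh1l2, a mitochondrial folate enzyme, was at 9.0024 and 5.83 CPM in WT and 1.79 and 2.72 CPM in HET, with the groups apart and a difference of -1.72 ± 0.25 (adjusted p = 0.00348). Of its exon bases 14.1% are shared with other genes. Papss2, which makes the sulfate donor of the cell, was at 5.70 and 4.63 CPM in WT and 2.84 and 2.05 CPM in HET and differed by -1.08 ± 0.20. The receptor gene Kit was at 7.77 and 4.63 CPM in WT and 2.06 and 3.39 CPM in HET, where the higher HET library came close to the lower WT one, and differed by -1.19 ± 0.27. Prkg1 (-1.14 ± 0.25), the V-ATPase subunit gene Atp6v0d2 (-1.0007 ± 0.20), the purine receptor gene P2ry1 (-0.93 ± 0.17, 23.1% overlap), Zfp983 (-0.90 ± 0.19) and the immediate early gene Egr3 (-0.87 ± 0.20) followed.

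Of the 12 largest falls outside the set of 22, a single gene, Papss2, kept its call without HET control 1, and the other 11 had adjusted p from 0.0504 to 0.276. Papss2 was among the 7 lost without HET control 2 (0.0639 to 0.175), with Prkg1, Atp6v0d2, P2ry1, Zfp983, Egr3 and Fabp5. Without WT control 1, Scd2, Kit, Atp6v0d2, Egr3 and Fabp5 were lost (0.0542 to 0.0990), and the values of Kit and Fabp5 were then -0.76 and -0.56. Without WT control 2, Scd2, Prkg1, Atp6v0d2 and Zfp983 were lost (0.0580 to 0.193). Single calls were lost without IL-6 libraries, Scd2 and Prkg1 without WT IL-6 1 (0.0536 and 0.0571), Prkg1 without WT IL-6 2 (0.0578) and Fabp5 without HET IL-6 1 or 2 (0.0695 and 0.0744). The offsets ended the calls of Scd2, Prkg1, Atp6v0d2 and Fabp5 (0.0659 to 0.136).

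Of 23 tested genes of cholesterol synthesis 14 were called lower and 0 higher, where 2.05% of all tested genes were called lower. All 23 had a negative difference, with a median of -0.42. Cyp51, which demethylates lanosterol, was at 153 and 149.99 CPM in WT and 91.5 and 106 CPM in HET, and Sc5d, a late desaturase of the pathway, at 89.5 and 80.7 CPM in WT and 51.01 and 59.5 CPM in HET. Hmgcs1, which makes the HMG-CoA from which the pathway starts (12.1% overlap), was at 133 and 131 CPM in WT and 84.1 and 97.9 CPM in HET. Both HET libraries lay below both WT libraries in each, and HET control 1 was the lower of the 2. The differences were -0.62 ± 0.09 (adjusted p = 0.0031), -0.62 ± 0.09 (0.00366) and -0.53 ± 0.08 (0.00485). Msmo1 (-0.55 ± 0.08), Nsdhl (-0.64 ± 0.10) and Idi1 (-0.56 ± 0.10) were lower by similar amounts. With the offsets 15 members were called lower, and the median GC content of the list, 48.7%, was near that of all genes. The number called lower was 9 without WT control 1, 15 without WT control 2, 0 without HET control 1 and 9 without HET control 2, with medians from -0.31 (without HET control 1) to -0.62 (without HET control 2).

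**Figure D4:**
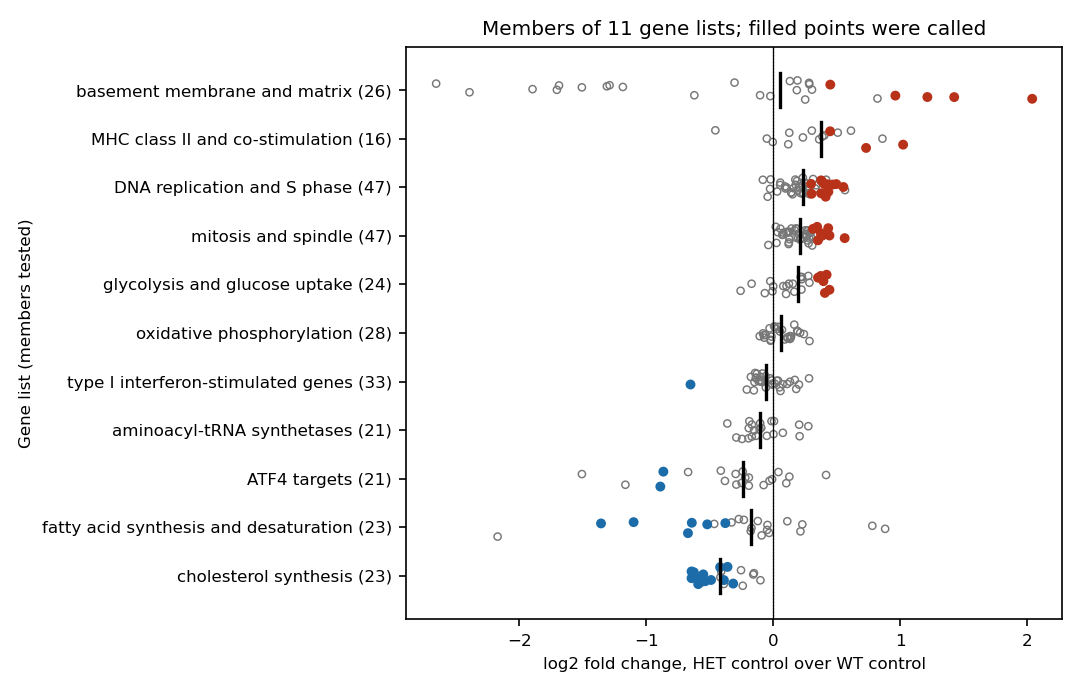
Log2 fold change of HET over WT in control macrophages for each tested member of 11 gene lists, with called members filled (red higher, blue lower) and the black bar at the list's median; the number of members is in brackets. All 23 cholesterol synthesis members lie left of 0, while 43 of 47 S phase and 46 of 47 mitosis members lie right of it.

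Genes of this pathway are switched on together by SREBP2, a factor that is released when cell sterols are low and binds sterol regulatory elements next to CCAAT boxes, which NF-Y occupies. Since the members moved together, the 250 bases before the RefSeq start were searched on both strands for CCAAT, which reads ATTGG when it lies on the opposite strand, and for TCACNCCAC. A window was at hand for 16 of the 23 members and for 9988 of all tested genes (RefSeq, GRCm38.p6). CCAAT was in 15 of the 16 sterol windows (93.8%) and in 40.5% of all windows, and TCACNCCAC in 1 of 16 (6.25%) and in 1.26%. Other lists, described below, also held CCAAT often. It was in 12 of 18 windows of ATF4 targets (66.7%), 24 of 38 of S phase genes (63.2%) and 29 of 39 of mitosis genes (74.4%). Such matches describe the letters and show no binding. The windows of Sc5d (chr9:42264301-42264550, minus strand) and Hmgcs1 (chr13:119690101-119690350, plus strand) are shown with matches in capitals, 1 CCAAT in Sc5d and 3 CCAAT and 1 TCACNCCAC in Hmgcs1, none of which overlap.
Sc5d: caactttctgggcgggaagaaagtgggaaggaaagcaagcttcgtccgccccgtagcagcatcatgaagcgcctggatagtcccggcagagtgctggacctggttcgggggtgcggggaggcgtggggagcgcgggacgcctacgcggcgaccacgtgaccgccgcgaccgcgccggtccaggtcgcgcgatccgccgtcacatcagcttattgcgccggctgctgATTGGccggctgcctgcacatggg
Hmgcs1: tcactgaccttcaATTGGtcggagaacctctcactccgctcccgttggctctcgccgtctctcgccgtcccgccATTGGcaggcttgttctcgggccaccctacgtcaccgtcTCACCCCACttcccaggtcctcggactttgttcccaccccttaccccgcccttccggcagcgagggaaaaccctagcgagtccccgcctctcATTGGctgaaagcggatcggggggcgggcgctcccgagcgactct

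Regulators around the pathway were mixed. Of 15 tested genes of SREBP control, 1 was called higher and 2 lower. The shares over all tested genes were 2.81% higher and 2.05% lower. Insig1, the sterol-sensing anchor of SREBP and itself a target, was at 328 and 306 CPM in WT and 203 and 249 CPM in HET and was lower (-0.49 ± 0.10). The cholesterol exporter gene Abca1 was at 491 and 488 CPM in WT and 268 and 347 CPM in HET and was lower (-0.67 ± 0.13), while Nr1h3, which encodes its activator LXR alpha, was higher by 0.68 ± 0.15. Without HET control 1 the calls of all 9 genes named here and in the sterol pathway were lost (adjusted p from 0.0628 to 0.256). Abca1 was also lost without WT control 1 (0.108), without WT control 2 (0.187) and with the offsets (0.133).

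Of 23 tested genes of fatty acid synthesis and desaturation 6 were called lower and 0 higher, with a median of -0.18, where 2.05% of all tested genes were called lower. The desaturase gene Scd2 was at 679 and 471 CPM in WT and 194 and 255 CPM in HET, and Acss2, which makes acetyl-CoA from acetate, at 29.8 and 21.3 CPM in WT and 10.018 and 13.8 CPM in HET. Fads2, the delta-6 desaturase gene, was at 192 and 136 CPM in WT and 97.7 and 109 CPM in HET. The HET libraries were below the WT libraries in all 3, and WT control 1 was the highest. The differences were -1.36 ± 0.23 (adjusted p = 0.0291), -1.10 ± 0.17 (0.00424) and -0.67 ± 0.14 (0.0188). The acyl-CoA synthetase genes Acsl3 (-0.64 ± 0.10) and Acsl4 (-0.38 ± 0.09) and the elongase gene Elovl6 (-0.52 ± 0.11) completed the 6. With the offsets 9 were called lower and 1 higher. In the list of lipid uptake and storage 1 of 17 was higher and 1 lower, where 2.81% of all tested genes were called higher. The higher was the lipoprotein receptor gene Lrp1 (0.59 ± 0.10) and the lower the fatty acid carrier gene Fabp5 (-0.87 ± 0.20).

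Without HET control 1 all 8 of these calls were lost (adjusted p from 0.0628 to 0.329). Without HET control 2 Fads2, Elovl6, Acsl4 and Fabp5 were lost (0.0501 to 0.198), and without WT control 1 Scd2 and Fabp5 (0.0755 and 0.0970), with Fads2 at -0.40 and Fabp5 at -0.56. Without WT control 2 Scd2 and Acsl4 were lost (0.0580 and 0.132), and Acsl4 and Fabp5 without either HET IL-6 library (0.0682 to 0.0744). Scd2 was lost without WT IL-6 1 (0.0536) and, with Fabp5, under the offsets (0.0688 and 0.136), where Acsl4 was at -0.20.

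ATF4 is the transcription factor of the integrated stress response and is translated when amino acids run short. Asns, asparagine synthetase and a standard ATF4 target, was at 104 and 88.4 CPM in WT and 45.3 and 58.4 CPM in HET. Atf5, a related factor, was at 21.6 and 21.3 CPM in WT and 12.3 and 11.3 CPM in HET. Both HET libraries were well below both WT libraries in each, with differences of -0.89 ± 0.12 (adjusted p = 0.00208) and -0.86 ± 0.13 (0.00348), and neither call was lost without any library or with the offsets. They were the only 2 of 21 tested ATF4 targets called, both lower, with a list median of -0.24, where 2.05% of all tested genes were called lower. Trib3 (-0.67 ± 0.20, adjusted p = 0.0827) and Sesn2 (-0.38 ± 0.13, adjusted p = 0.105) did not pass. With the offsets 6 were called lower, and without WT control 2, 8.

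ATF4 binds the sequence TGATGNAA as a dimer with C/EBP factors. On either strand of the 250 bases before the RefSeq start it was found in 8 of the 18 ATF4 targets with a window (44.4%) and in 2.59% of all windows. In Asns the match starts 23 bases before the RefSeq start, and it is shown in capitals with its surroundings (chr6:7693214-7693243, minus strand), where it lies next to the start of the gene.
Asns: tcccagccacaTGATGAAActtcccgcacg

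Related lists held calls in both directions or none, where 2.81% of all tested genes were called higher and 2.05% lower. Among serine synthesis and folate enzymes 1 of 19 was lower, Aldh1l2, and 1 higher, Mthfd1 (0.36 ± 0.09). Phgdh, the first enzyme of serine synthesis, was at 52.023 and 29.3 CPM in WT and 18.8 and 21.6 CPM in HET and did not pass (-1.01 ± 0.30, adjusted p = 0.132). Amino acid transporters had 1 of 19 higher, Slc7a8 (0.50 ± 0.09), and 2 lower, Slc1a4 (-0.80 ± 0.16) and Slc38a2 (-0.30 ± 0.08). Of 21 tested aminoacyl-tRNA synthetases 0 were called by edgeR, 9 had an unadjusted p under 0.05, and DESeq2 called 3 and limma voom 0. Nars, the asparaginyl enzyme, came nearest (-0.29 ± 0.08, adjusted p = 0.054). Chaperones of the endoplasmic reticulum had Creld2 higher (0.44 ± 0.09) and Dnajb9 lower (-0.63 ± 0.09) of 19. All 7 of these called genes outside Asns and Atf5 were lost without HET control 1 (adjusted p from 0.0566 to 0.362). Mthfd1, Slc38a2 and Creld2 were lost without WT control 2 (0.0653 to 0.0858) or HET control 2 (0.0707 to 0.175). Mthfd1 and Slc38a2 were also lost without either HET IL-6 library (0.0610 to 0.107) and with the offsets (0.0508 and 0.0958).

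Of 47 tested genes of DNA replication and S phase 12 were called higher and 0 lower, where 2.81% of all tested genes were called higher, with 43 above 0 and a median of 0.23. Of 47 genes of mitosis and the spindle 10 were called higher and 0 lower, with 46 above 0 and a median of 0.21. Mcm5, a subunit of the replicative helicase, was at 177 and 167 CPM in WT and 255 and 230.2 CPM in HET, and Tk1, the S phase thymidine kinase, at 78.2 and 66.3 CPM in WT and 112 and 100.3 CPM in HET. Aurkb, the kinase that corrects chromosome attachment, was at 47.9 and 47.041 CPM in WT and 66.016 and 63.2 CPM in HET. Both HET libraries exceeded both WT libraries in the 3 genes, by 0.50 ± 0.08 (adjusted p = 0.00485), 0.55 ± 0.10 (0.00765) and 0.44 ± 0.08 (0.011).

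The DNA ligase gene Lig1 (0.43 ± 0.07), the polymerase gene Pold1 (0.47 ± 0.09), Mcm7 (0.41 ± 0.08, 12.6% overlap) and the transcription factor gene E2f2 (0.44 ± 0.08) were similar. So were the mitotic factors Mybl2 (0.56 ± 0.11) and Foxm1 (0.35 ± 0.08), the separase gene Espl1 (0.43 ± 0.09), Kif18b (0.39 ± 0.09) and Birc5 (0.39 ± 0.09). Of D-type cyclins and CDK inhibitors 1 of 15 was called, Ccnd3 (0.50 ± 0.09), where 2.81% of all tested genes were called higher. With the offsets 20 of the S phase and 26 of the mitosis genes were called higher and their median GC contents were 48.9% and 47.6%. The counts were 13 and 18 without WT control 1, 8 and 2 without WT control 2, 0 and 0 without HET control 1, and 4 and 1 without HET control 2.

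For the 14 division genes named, Uhrf1 included, adjusted p without HET control 1 ran from 0.115 to 0.337, so all lost their call. Without HET control 2 Pold1, E2f2, Aurkb, Espl1, Foxm1, Kif18b and Birc5 were lost (0.0544 to 0.103), and without WT control 2 Espl1, Foxm1, Kif18b and Birc5 (0.0526 to 0.0686). Foxm1 and Birc5 were lost without either HET IL-6 library (0.0533 to 0.0561). The offsets brought Pold1 to 0.30 and ended none of these calls. The E2F letters TTTCCCGC were in 3 of 38 S phase windows (7.89%) and in 2.05% of all windows.

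The 10 most abundant called higher genes included 3 of the actin cytoskeleton, for which no list was tested. Actb, cytoplasmic actin, was at 4203 and 4102 CPM in WT and 5224 and 5121 CPM in HET, and Flna, an actin cross-linker, at 2309 and 2211 CPM in WT and 2969.5 and 2895 CPM in HET. Myh9, non-muscle myosin, was at 861 and 867 CPM in WT and 1204 and 1182 CPM in HET. The replicates of a genotype lay close together and the genotypes apart, with differences of 0.32 ± 0.08 (adjusted p = 0.0372), 0.38 ± 0.08 (0.0218) and 0.47 ± 0.08 (0.00509). The tubulin gene Tubb5 (0.39 ± 0.08), gelsolin (Gsn, 0.33 ± 0.08), Plec and Adam8 belonged to the same 10 most abundant called higher genes, with Lrp1, Pkm and the cathepsin gene Ctsl (0.31 ± 0.08, of whose exon bases 26.8% are shared).

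Among the 10 most abundant called lower genes, the mannose receptor gene Mrc1, a marker of alternatively activated macrophages, was at 2051 and 2099 CPM in WT and 1473 and 1603 CPM in HET. Both HET libraries were below both WT libraries, with a difference of -0.43 ± 0.08 (adjusted p = 0.00977). Selenop, which carries selenium (-0.63 ± 0.09, 15.4% overlap), the platelet and leukocyte substrate gene Plek (-0.34 ± 0.09), Osbpl8 (-0.39 ± 0.09), Klf6 (-0.38 ± 0.08), Atp6v1a (-0.32 ± 0.08), Sh3bgrl (-0.44 ± 0.11), Wwp1 (-0.49 ± 0.09), Serpinb6a (-0.30 ± 0.08, 29.3% overlap) and the chemokine gene Ccl2 (-0.31 ± 0.08) were the others. Of the 19 abundant genes other than Pkm, Plec alone stayed called without HET control 1, and the other 18 had adjusted p from 0.0914 to 0.411. Without HET control 2, 13 were lost (0.0639 to 0.227), all but Lrp1, Myh9, Plec, Mrc1, Selenop and Wwp1. Without WT control 2 Actb, Ctsl, Gsn, Plek, Osbpl8, Sh3bgrl, Serpinb6a and Ccl2 were lost (0.0536 to 0.211), and Plek and Sh3bgrl were then at -0.22 and -0.28. The same 8, with Flna and Atp6v1a, were lost without either HET IL-6 library (0.0533 to 0.102). The offsets ended the calls of Gsn, Serpinb6a and Ccl2 (0.0707 to 0.327) and brought Gsn, Plek, Osbpl8, Sh3bgrl, Serpinb6a and Wwp1 to 0.19, -0.20, -0.23, -0.24, -0.14 and -0.33.

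Glycolysis and glucose uptake genes were higher in 6 of 24 tested members and lower in 0, with a median of 0.19, where 2.81% of all tested genes were called higher. The glucose transporter gene Slc2a1 was at 50.6 and 44.9 CPM in WT and 65.3 and 64.6 CPM in HET, and the enolase gene Eno1 at 590.4 and 519.9 CPM in WT and 759 and 714 CPM in HET. Both were higher in both HET libraries, by 0.44 ± 0.09 (adjusted p = 0.0147) and 0.41 ± 0.09 (0.018). The pyruvate kinase gene Pkm (0.35 ± 0.08, 15.3% overlap), the phosphofructokinase gene Pfkl (0.42 ± 0.09), Slc2a6 (0.38 ± 0.09) and the lactate exporter gene Slc16a3 (0.40 ± 0.10) were the other 4. Of 26 hypoxia targets Slc2a1 was the 1 called higher and Bnip3l, a mitophagy receptor gene, the 1 lower (-0.39 ± 0.09). The median GC content of the glycolysis list was 53.45%, and the offsets brought Pkm, Eno1, Slc2a6, Slc16a3 and Bnip3l to 0.21, 0.26, 0.22, 0.26 and -0.25, ending the calls of Slc2a6 and Slc16a3 (0.0814 and 0.111). All 7 genes were lost without HET control 1 (0.1095 to 0.425) and without HET control 2 (0.0589 to 0.269), and all but Slc2a1 without WT control 2 (0.0596 to 0.146). Pkm, Slc2a6, Slc16a3 and Bnip3l were lost without either HET IL-6 library (0.0568 to 0.0799). Of 28 oxidative phosphorylation genes 0 were called by edgeR, DESeq2 or limma voom and 4 had an unadjusted edgeR p under 0.05, with a median of 0.06.

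Inflammatory mediators were divided, 3 of 27 tested members higher and 3 lower, with a median of 0.13. Of all tested genes 2.81% were called higher and 2.05% lower. The cytokine gene Il1b was at 91.2 and 112 CPM in WT and 148 and 219 CPM in HET, and Il1a (11.2% overlap) at 7.45 and 9.53 CPM in WT and 10.981 and 13.8 CPM in HET. Il1b was higher by 0.85 ± 0.18 (adjusted p = 0.031) and Il1a by 0.55 ± 0.15 (0.0489), with HET control 2 the highest library in both, and Cxcl10 was the third. The monocyte attractants Ccl2 and Ccl7 and the endotoxin receptor gene Tlr4 were lower. Ccl7 was at 359 and 343 CPM in WT and 251 and 271 CPM in HET and Tlr4 at 182 and 201 CPM in WT and 132 and 139.9 CPM in HET, with the genotypes apart and differences of -0.43 ± 0.08 and -0.50 ± 0.09. Of 33 type I interferon-stimulated genes 1 was called, Ifi44, lower (-0.65 ± 0.15), and the median was -0.06.

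Genes of antigen presentation through MHC class II had a median of 0.38, with 3 of 16 tested members called higher and 0 lower. The shares over all tested genes were 2.81% higher and 2.05% lower. DESeq2 called 6 members, and limma voom 1, both with quality weights and with same-numbered libraries of a genotype as a random block. Ciita, the master activator of the class II genes, was at 2.11 and 2.21 CPM in WT and 3.54 and 5.23 CPM in HET and was higher by 1.02 ± 0.23. The class II chain gene H2-Ab1 (0.45 ± 0.12) and the costimulatory ligand gene Icosl (0.73 ± 0.13) were the others, and with the offsets Ciita alone of the list was called. Among class I and peptide loading genes 1 of 21 was called, the transporter gene Tap2 (0.32 ± 0.08, 18.5% overlap). Alternative activation genes had Tgm2 (0.44 ± 0.07, 21.8% overlap) and the IL-4 receptor gene Il4ra (0.39 ± 0.09) higher and Mrc1 lower of 14, and Bcl3 was higher (0.74 ± 0.18) with Il4ra among 22 genes of IL-6 and STAT3 signalling. Phagocytic and complement genes had C3 higher (0.50 ± 0.12) and the inhibitory Fc receptor gene Fcgr2b (-0.38 ± 0.09) and the efferocytosis kinase gene Mertk (-0.36 ± 0.09) lower of 24.

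Of the 18 immune genes named here, Il1b and Cxcl10 stayed called without HET control 1, and the other 16 had adjusted p from 0.0566 to 0.411, with Ifi44 at -0.39. Without HET control 2 the 3 that stayed were Cxcl10, Ifi44 and Mrc1, the other 15 had adjusted p from 0.0520 to 0.338, and Il1b was at 0.54. Without WT control 1, 8 were lost (Il1b, Il1a, Ifi44, H2-Ab1, Tap2, Bcl3, C3 and Mertk, 0.0502 to 0.203), and without WT control 2, 10 (Il1b, Ccl2, Ifi44, Ciita, H2-Ab1, Tap2, Il4ra, Bcl3, C3 and Fcgr2b, 0.0505 to 0.258). Without either WT IL-6 library Il1b, Ifi44 and Bcl3 were lost (0.0522 to 0.0881), and without either HET IL-6 library Il1a, Ccl2, H2-Ab1, Tap2, C3, Fcgr2b and Mertk (0.0525 to 0.0947). The offsets ended 9 calls, those of Il1b, Ccl2, Ifi44, H2-Ab1, Icosl, Tap2, Bcl3, C3 and Fcgr2b (0.0613 to 0.243), and brought Tlr4 to -0.33 and Tap2 to 0.18. Cxcl10 alone of the 18 was called in every one of these fits.

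Growth factor receptors and myeloid regulators had 4 of 29 tested members higher and 4 lower, with a median of -0.00398. Of all tested genes 2.81% were called higher and 2.05% lower. Among the higher ones were Nr4a1, Id3, an inhibitor of helix-loop-helix factors that marks some tissue macrophages (169 and 186 CPM in WT and 252 and 268 CPM in HET, 0.55 ± 0.10), and the inflammatory factor gene Irf5 (0.33 ± 0.07, 14.1% overlap). Among the lower ones were Klf6, Egr3 and Kit. The repressor gene Prdm1, which is outside this list, was higher (0.51 ± 0.10). Nr4a1 apart, all 6 of these lost their call without HET control 1 (adjusted p from 0.0758 to 0.276). Id3, Irf5, Klf6 and Egr3 were lost without HET control 2 (0.0639 to 0.122), Irf5 without WT control 2 (0.0638) or either HET IL-6 library (0.0610 and 0.0615), and Id3 with the offsets (0.102), where Irf5 was at 0.21. Egr3 and Kit were lost without WT control 1 (0.0542 and 0.0990), with Kit at -0.76.

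The called members of other lists are given here, where 2.81% of all tested genes were called higher and 2.05% lower. By edgeR 0 of 19 imprinted genes and 0 of 36 histone methyltransferase and demethylase genes were called, with medians of -0.12 and 0.0048. An unadjusted edgeR p under 0.05 was found for 5 and 14 of them, DESeq2 called 0 and 2, and limma voom called 0 in both. Of 31 lysosome genes 1 was higher and 2 lower, of 23 NRF2 and antioxidant targets 1 was higher and of 13 osteoclast genes 1 was lower. Imprinted genes are of interest as genes whose level depends on inherited DNA methylation, and 1 was called, lower, without WT control 1.

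Markers of the cells in the dishes were those of macrophages in both genotypes. Of the 12 macrophage markers 2 were called lower, Mrc1 and Mertk, and 0 higher, where 2.05% of all tested genes were called lower. Of 12 markers of T and NK cells 10 had at most 3 counts in every control library, and Cd3e, Cd3g, Cd8b1, Ncr1 and Gzma were at 0. Pax5, Vpreb3 and Igkc of B cells and 6 of 12 mast cell and basophil markers were at 0 in all 4 libraries. Monocyte markers summed to 207 and 214 CPM in WT and 256 and 262 CPM in HET, with Nr4a1 called. Nr4a1 (1774 and 1411 counts in WT, 2270 and 2569 in HET) and Spn (1948 and 1697, then 2319 and 2241) made up most of that sum. Ccr2, the receptor of classical monocytes, went the other way without being called (888 and 954 counts in WT, 532 and 786 in HET), as did Plac8 (27 and 28, then 11 and 18). The dendritic and Langerhans-type sum was 10.7 and 11.6 CPM in WT and 18.4 and 13.85 CPM in HET. Cd207 was the 1 called member (12 and 30 counts in WT, 165 and 81 in HET), whereas Irf4 had 200 and 161 counts in WT and 185 and 179 in HET and Cd209a 4 and 6 against 1 and 2. Flt3 had at most 6 counts and Epcam at most 3 in any control library. A lower share of a cell type and less RNA per cell cannot be told apart in such bulk libraries.

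Some markers of other lineages differed, all at low or moderate levels. The progenitor genes Cd34 (10.4 and 13.018 CPM in WT and 27.1 and 18.1 CPM in HET) and Procr (5.78 and 6.05 CPM in WT and 9.06 and 10.041 CPM in HET) were higher, by 0.95 ± 0.21 and 0.69 ± 0.15, and Kit of the same list was lower, as given above. The sum of that list was 146.3 and 138.9 CPM in WT and 130.8 and 154.1 CPM in HET, so the genotypes overlapped. The neutrophil gene S100a9 was higher by 1.65 ± 0.39 at 8 and 10 counts in WT and 28 in each HET library, and DESeq2 did not call it. The neutrophil list summed to 26.6 and 21.7 CPM in WT and 22.1 and 21.2 CPM in HET, and its most abundant member Csf3r had 580 and 384 counts in WT and 331 and 360 in HET. Vwf was lower (-0.57 ± 0.12) and Eng higher (0.32 ± 0.09). Cd34, Procr, S100a9, Vwf, Eng, Cd207, Bgn, Mrc1 and Mertk all lost their call without HET control 1 (adjusted p from 0.115 to 0.411), where Cd34 was at 0.64. Procr, S100a9, Vwf, Bgn, Eng and Mertk were lost without HET control 2 (0.05001 to 0.242), Cd207, Cd34, S100a9 and Mertk without WT control 1 (0.0644 to 0.197, with Vwf at -0.35) and Cd207, Cd34, S100a9, Bgn and Eng without WT control 2 (0.0671 to 0.242). Bgn was also lost without either WT IL-6 library (0.0954 and 0.0976), and Cd207, S100a9, Eng and Mertk without either HET IL-6 library (0.0521 to 0.0820). The offsets ended the calls of Cd207, Bgn and Eng (0.0565 to 0.193), with Eng at 0.17.

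Calls were spread over the genome. The share of tested genes called ran from 3.23% on chromosome 3 to 7.28% on chromosome 15 among chromosomes with called genes. Within 10 Mb of Dnmt3a on chromosome 12, 2 of 44 tested genes were called, where 4.85% of all tested genes were. They were Rhob (120.4 and 119.2 CPM in WT and 92.1 and 94.6 CPM in HET, -0.36 ± 0.08) and Sdc1 (0.51 ± 0.11), named after their values were seen. Both were lost without HET control 1 (adjusted p of 0.258 and 0.231) and without HET control 2 (0.118 and 0.105). Rhob was also lost without either HET IL-6 library (0.0541 and 0.0537), and Sdc1 with the offsets (0.0656).

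The same contrast in the IL-6 libraries, which the contrast without IL-6 used only for the spread, was read for the 666 genes. Same-numbered libraries of a genotype may come from the same mouse, so the 2 contrasts may not be independent. After IL-6, 1814 of all tested genes were called higher (13.2%) and 1207 lower (8.8%) in HET. Of the 666, 129 were called in the same direction and 117 in the opposite direction. In sign alone 348 (52.25%) were the same, against 60.02% of all tested genes. The difference between the 2 contrasts was itself called in 301 of the 666, against 8.12% of all tested genes. Since these 666 were chosen by 1 side of that difference, the 2 shares are not comparable.

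Of the 22 genes that stayed called without each control library, 5 were called in the same direction after IL-6, 6 in the opposite direction, and 16 had a called difference between the contrasts. Asns was at 57.1 and 62.7 CPM in WT and 131 and 119.9 CPM in HET after IL-6, where HET was the higher genotype (1.06 ± 0.12, adjusted p = 0.000105). The difference between its contrasts was 1.95 ± 0.16 (adjusted p = 7.02e-05). Traf1 was higher in HET in both arms, at 21.8 and 30.9 CPM in WT and 40.9 and 35.022 CPM in HET after IL-6 (0.53 ± 0.14, adjusted p = 0.0176), and so was Plec (0.45 ± 0.08). Col4a1 (-0.67 ± 0.14) and Col4a2 (-0.48 ± 0.13) were lower in HET after IL-6. The value of Asns stayed called after IL-6 without each library and with the offsets. That of Plec was 0.050 with the offsets (adjusted p = 0.681) and was lost without HET IL-6 2 (0.0671, at 0.35). Traf1 was lost with the offsets (0.0785), without WT IL-6 1 (0.232, at 0.29) and without HET IL-6 1 (0.159). Col4a1 and Col4a2 were lost without WT IL-6 1 (0.0866 and 0.213), and Col4a2 without either HET IL-6 library (0.0995 and 0.0858).

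**Figure D5:**
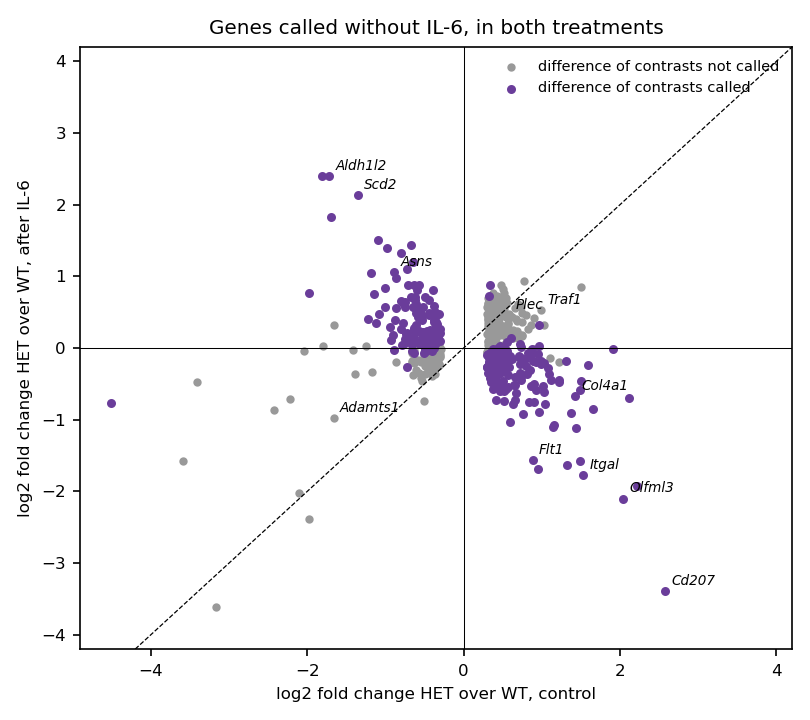
Log2 fold change of HET over WT without IL-6 (x axis) and after IL-6 (y axis) for genes called without IL-6, purple where the difference between the contrasts was called; the dashed line marks equal values, and Sulf1 and Thbs2, with no counts in HET control, are not drawn. Genes far from 0 on the x axis lie mostly across the horizontal axis from their control value, such as Cd207 at 2.57 and -3.39, Scd2 at -1.36 and 2.14 and Aldh1l2 at -1.72 and 2.40.

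Among the largest changes most signs turned over after IL-6. Of the 62 genes changed at least 2-fold, 45 had the opposite sign, of which 22 were called, and 5 were called in the same direction. The sign stayed the same in 52.25% of all called genes and in 60.02% of all tested genes. The 62 include genes with few counts, such as Sulf1 and Grem1. Flt1, a receptor for VEGF, was at 4.74 and 5.47 CPM in WT and 9.01 and 9.79 CPM in HET without IL-6 and at 5.91 and 4.77 CPM in WT and 1.49 and 2.03 CPM in HET with it. Its difference went from 0.88 ± 0.17 to -1.56 ± 0.20. Fkbp5 (0.56 and -0.55), Spata13 (0.90 and -0.75) and Cd276 (11.4% overlap, 0.84 and -0.75) also turned over, with adjusted p of the difference of the contrasts of at most 0.000344. These 4 calls without IL-6 were lost without HET control 1 (adjusted p from 0.0763 to 0.115), that of Flt1 without HET control 2 (0.0898) and that of Spata13 with the offsets (0.0525). The sterol list, 14 of 23 members lower without IL-6, had 22 of 23 members called higher in HET after it, with a median of 0.71. After IL-6, 13.2% of all tested genes were called higher. How this list count after IL-6 depends on single libraries or the offsets was not tested. With the offsets, the 3021 genes called after IL-6 became 1553.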

How the data were processed

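RNA of 8 libraries of cultured mouse macrophages was sequenced from stranded poly(A) libraries, and the authors deposited 1 table of raw read counts per gene. Per the submitters' processing notes the tools were fastp 0.12.4, STAR 2.7.9a, SAMtools 1.9 and featureCounts 1.6.2, with the build mm10. Counts were tested with edgeR 4.0.16 in R 4.3.3 (TMM, filterByExpr with a minimum count of 10, 1 mean per group, 4 residual degrees of freedom, adjusted p under 0.05). Alternatives used limma 3.58.1, DESeq2 1.42.0 and offsets smoothed with mgcv 1.9.3. Gene positions and exon length came from the deposited count table. GC content came from the transcripts of GENCODE M21, which matched 99.4% of the 55376 genes by position. Of 26 symbols turned into dates 25 were restored and 1 was not.

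The fit was tested on simulated counts with known changes in the HET control libraries. It recovered 60.6% of 66 changes of 0.5 on the log2 scale and 89.6% of 67 changes of 1.5. Of the genes it called, 6.79% had no change. The simulated libraries held no GC trend and no library that stood apart, so the outcome does not cover those features of the data.

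Genes were named by rule: members of the DNA methylation list, the 15 largest rises and falls of at least 5 CPM, the 10 most abundant called genes each way, up to 6 members of each list by p, genes called in every fit described, cell type markers, and the 10 each way whose contrast changed most with IL-6. One of the 22 genes called in every fit is not reported here. Members, lists and rules were chosen with earlier results of these data known.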

Additional observations from a re-analysis of the deposited data

Results flagged for a closer look

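The contrast of HET over WT differed between the IL-6 and the control libraries, by edgeR's test of that difference with adjusted p under 0.05, in 301 of the 666 genes. The values below are that difference for the named genes, the log2 fold change after IL-6 minus that without IL-6. A gene called without IL-6 enters with an extreme value there, so differences toward the other sign are more readily called.

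For genes above 0 without IL-6 the value after IL-6 was the lower one in this group. It differed for Uhrf1 (-0.56), Spsb1 (-1.66), Uchl1 (-0.96), Cxcl10 (-0.94), Col4a1 (-2.09), Col4a2 (-1.69), Prag1 (-0.73), Col18a1 (-0.64), Pdlim7 (-1.07), Pdgfb (-0.67) and Itgb7 (-0.87). Further such genes were Cd207 (-5.96), Olfml3 (-4.14), Itgal (-3.30), Smad6 (-2.06), Dmpk (-2.57), Nptx1 (-2.97), Itga8 (-2.25), Tspan33 (-1.57), Cspg4 (-1.65), Lrp1 (-0.71), Slc7a8 (-0.97) and Creld2 (-0.55). The same sign was found for Mcm5 (-0.64), Tk1 (-0.59), Lig1 (-0.65), E2f2 (-0.62), Mcm7 (-0.58), Aurkb (-0.47), Mybl2 (-0.73), Foxm1 (-0.41), Birc5 (-0.59), Flna (-0.47), Adam8 (-0.64) and Tubb5 (-0.41). Negative differences were also those of Ctsl (-0.66), Nid2 (-0.57), Plaur (-0.46), Il1b (-1.16), Il1a (-1.12), Ciita (-1.23), Icosl (-1.18), Tgm2 (-0.62), Prdm1 (-1.11), Cd34 (-2.63), S100a9 (-2.50) and Flt1 (-2.45). Also negative were Fkbp5 (-1.11), Spata13 (-1.65) and Cd276 (-1.58).

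For genes below 0 without IL-6 the value after IL-6 was the higher one in this group. It differed for Trp53inp1 (0.45), Asns (1.95), Atf5 (1.84), Cnrip1 (1.58), Wfdc17 (0.82), Aldh1l2 (4.11), Scd2 (3.49), Kit (2.24), Prkg1 (1.89), Acss2 (2.60), Papss2 (1.56) and Atp6v0d2 (1.84). Further such genes were P2ry1 (1.04), Zfp983 (1.09), Mmp27 (0.87), Egr3 (1.27), Fabp5 (1.42), Cyp51 (1.28), Sc5d (1.34), Msmo1 (0.98), Hmgcs1 (0.99), Nsdhl (1.21), Idi1 (1.08) and Insig1 (1.20). The same sign was found for Abca1 (1.39), Acsl3 (1.21), Fads2 (2.10), Elovl6 (1.09), Slc1a4 (2.13), Slc38a2 (0.39), Dnajb9 (0.56) and Mrc1 (0.57). Trib3 (2.82), Sesn2 (1.37), Phgdh (3.28) and Nars (0.54) had it too. These last genes were not called without IL-6, so they are outside the called genes counted above. Positive differences were also those of Selenop (0.78), Ccl2 (0.57), Ccl7 (0.68), Tlr4 (0.49), Fcgr2b (0.77), Mertk (0.67) and Vwf (1.45).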

How the results depend on the processing

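Of the 136 called genes named, none changed direction under any of the alternatives run. In each of them both HET libraries lay on the same side of both WT libraries. Leaving out a control library therefore left little room for a change of direction. The number of genes called without IL-6, 666, was 425 with limma voom and quality weights, 1078 with no count filter and 437 in the 4 control libraries alone. Leaving out 1 library gave 33 to 1304. DESeq2 size factors (662), total count scaling (656), DESeq2 (832), a minimum count of 50 (640) and the offsets (653) stayed within 1.5 times. The 3021 genes called after IL-6 became 1553 with the offsets and 879 to 4000 without 1 library. The 1114 genes with a called difference between the contrasts became 629 with same-numbered libraries of a genotype as a random block in limma, 1688 with the offsets and 304 to 2123 without 1 library. The GC trend, the log2 difference between the outer deciles, was 0.37. It was 0.18 without WT control 2, up to 0.57 without WT control 1, and 0.028 with the offsets. The length trend of -0.098 ran from -0.065 without WT control 2 to -0.15 without WT control 1. In the fit of the 4 control libraries alone, 22 of the 136 called genes named lost their call (edgeR adjusted p from 0.0518 to 0.224). These were Dnmt1, Mbd3, Itgal, Mthfd1, Slc38a2, Foxm1, Actb, Ctsl, Gsn, Plek, Atp6v1a, Serpinb6a, Ccl2, Pkm, Slc16a3, Il1b, Il1a, H2-Ab1, Tap2, Mertk, Irf5 and Eng. Apart from what the setting itself removes (libraries, genes or the GC trend), the cause was not tested.

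The library numbers were not shown to pair the samples, since the labels tie no number to a mouse or batch. Deviations of same-numbered control libraries of both genotypes correlated at -0.059, and those of the control and IL-6 libraries at -0.11 in WT and 0.15 in HET. With the replicate number as a block, 339 genes were called without IL-6, 329 of them among the 666, and 732 differed between the contrasts. Block and offsets together gave 630 without IL-6 and 1467 after it.

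A lone library in a genotype is assumed to vary like the other groups. With 2 libraries a group and 4 residual degrees of freedom, a gene that did not pass is not shown to be unchanged, and genes under 5 CPM (48 of the 666) rest on few counts.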

Other observations

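After IL-6, 13.2% of all tested genes were called higher and 8.8% lower in HET. Of the 385 genes called higher without IL-6, 110 were called higher and 57 lower between the genotypes with it. Of the 281 called lower, 19 were called lower and 60 higher. The 2 sets were not compared by a test. The dependence on GC content had the same direction in the IL-6 libraries, where the median difference of HET over WT went from -0.26 in the lowest decile of genes by GC content to 0.43 in the highest.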
